A study of Mus musculus with 24 samples.

Results

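Fibronectin and a group of matricellular and fibre-forming genes were followed in neural stem and progenitor cells (NSPCs) with both, a single or no functional *Kat6a* alleles. The set held 10 of the 26411 genes in the count files, matched by gene symbol: *Fn1*, *Sparc*, *Sparcl1*, *Thbs1*, *Thbs2*, *Postn*, *Fbn1*, *Fbn2*, *Lox* and *Ecm1*. The set was chosen by measured values, namely the levels of *Fn1* and *Sparc* in differentiating *Kat6a*-/- NSPCs, which had been noted as higher. Values of all 10 genes in differentiating *Kat6a*-/- NSPCs against either other genotype are therefore given as a description without a test, and nothing is read from how many of them were called there. Proliferating NSPCs and differentiating *Kat6a*+/- NSPCs did not enter that choice and were tested. The differentiating *Kat6a*+/+ libraries were the reference of that contrast, so tests that use them are not independent of the choice.

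Fibronectin is a large glycoprotein that cells bind through integrins and assemble into fibrils, and it is an early component of provisional matrices. Matricellular proteins such as SPARC, the thrombospondins and periostin are secreted into the matrix but act mostly on how cells attach, spread and receive growth factor signals. Fibrillins form microfibrils that hold latent TGF-beta complexes, and lysyl oxidase cross-links collagen and elastin. In the brain, astrocytes and radial glia secrete several of these proteins, and thrombospondins and the SPARC family are known for their action on synapse formation. KAT6A is a histone acetyltransferase.

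The cells came from the dorsal telencephalon of E12.5 embryos of *Kat6a*+/- intercrosses on a C57BL/6 background. The null allele lacks exons and is truncated by an early stop within the acetyltransferase domain, and all controls were *Kat6a*+/+ embryos of such crosses. The terms wild-type, heterozygous and null stand for *Kat6a*+/+, *Kat6a*+/- and *Kat6a*-/- libraries. Proliferating NSPCs were grown for 3 days with FGF2 and EGF on uncoated plastic, where *Kat6a*+/+ cells floated as neurospheres while *Kat6a*+/- and more so *Kat6a*-/- cells became adherent, so in this condition adhesion and genotype cannot be told apart. Differentiating NSPCs were grown for 3 days with 1% serum on plates coated with poly-L-ornithine and laminin. RNA of proliferating cells was extracted with the RNeasy mini kit and RNA of differentiating cells with the RNeasy micro kit, so condition and kit cannot be told apart. Each of the 6 groups had 4 libraries, and the library names give the litter and the embryo that each culture came from. In bulk libraries of this kind, fewer cells of a type and less RNA per cell cannot be told apart.

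Library totals were 7826660 to 40838203 counts in proliferating NSPCs and 14836869 to 23692125 counts in differentiating NSPCs. Levels are given as CPM, counts scaled by library size and TMM factors over all 24 libraries. *Kat6a* itself was at 160 to 253 CPM in differentiating *Kat6a*-/- NSPCs and at 239 to 292 CPM in differentiating *Kat6a*+/+ NSPCs. These counts cover all exons, so the genotypes in the labels could not be checked with them. All 8 markers of neural stem and progenitor cells examined were above 1 CPM in every library of 5 groups, and 7 of 8 were in differentiating *Kat6a*-/- NSPCs. Y-linked genes had reads in 3 wild-type, 1 heterozygous and 1 null library of each condition. For 6 embryo labels a library was present in both conditions. For 1 of these 6, *Kat6a*+/+ replicate 1, Y-linked reads were present in the differentiating library and not in the proliferating library. For *Kat6a*+/+ replicate 2, the labels give the same embryo number but litter numbers with 2 digits exchanged in the 2 conditions, and Y-linked reads were present in the proliferating and not in the differentiating library. The litters were used as labelled. Counts of called genes that rest on the *Kat6a*+/+ libraries are also given without replicate 1.

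Upstream sequence was found in the RefSeq table of GRCm38.p6 for 5 of the 10 genes: *Sparc*, *Thbs2*, *Postn*, *Fbn1* and *Ecm1*. The 250 bases before the annotated start are shown for *Sparc*, which the choice of the set rested on, for *Ecm1*, which was called higher in proliferating *Kat6a*-/- NSPCs, and for *Fbn1*, whose level in differentiating libraries was most similar to that of *Fn1*. They are written 5′ to 3′ on the strand of the gene, which is the minus strand for all 3, and capitals mark motif matches.
Sparc, chr11:55420081-55420330: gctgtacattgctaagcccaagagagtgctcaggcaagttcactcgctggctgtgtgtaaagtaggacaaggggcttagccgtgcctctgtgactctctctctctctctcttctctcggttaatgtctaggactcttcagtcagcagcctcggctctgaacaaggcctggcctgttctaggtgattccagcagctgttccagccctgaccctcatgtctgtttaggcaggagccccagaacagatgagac
Ecm1, chr3:95739570-95739819: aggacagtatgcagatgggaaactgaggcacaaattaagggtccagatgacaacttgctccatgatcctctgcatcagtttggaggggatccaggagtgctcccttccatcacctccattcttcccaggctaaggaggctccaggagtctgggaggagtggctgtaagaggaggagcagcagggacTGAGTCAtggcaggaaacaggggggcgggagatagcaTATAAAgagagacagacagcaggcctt
Fbn1, chr2:125506439-125506688: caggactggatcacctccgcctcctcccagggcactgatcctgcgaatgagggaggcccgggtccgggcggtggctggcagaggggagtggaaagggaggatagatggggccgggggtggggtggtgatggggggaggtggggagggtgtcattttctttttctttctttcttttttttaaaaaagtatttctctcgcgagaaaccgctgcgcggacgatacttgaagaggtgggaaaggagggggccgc
These windows were searched on both strands for the AP-1 motif TGANTCA, the TATA motif TATAAA, the TEAD motif GGAATG and the CRE motif TGACGTCA. The *Ecm1* window held an AP-1 motif 64 to 58 bases before the start and a TATA motif 27 to 22 bases before it. The *Sparc* and *Fbn1* windows held none of the 4 motifs. A *Postn* window held a TATA motif 26 to 21 bases before its start, and the *Thbs2* window held it on the opposite strand 126 to 121 bases before the start. Among all 32851 promoter windows of that length, 6.75% held the AP-1 motif, 12.4% the TATA motif, 12.6% the TEAD motif and 1.55% the CRE motif.

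**Figure D1:**
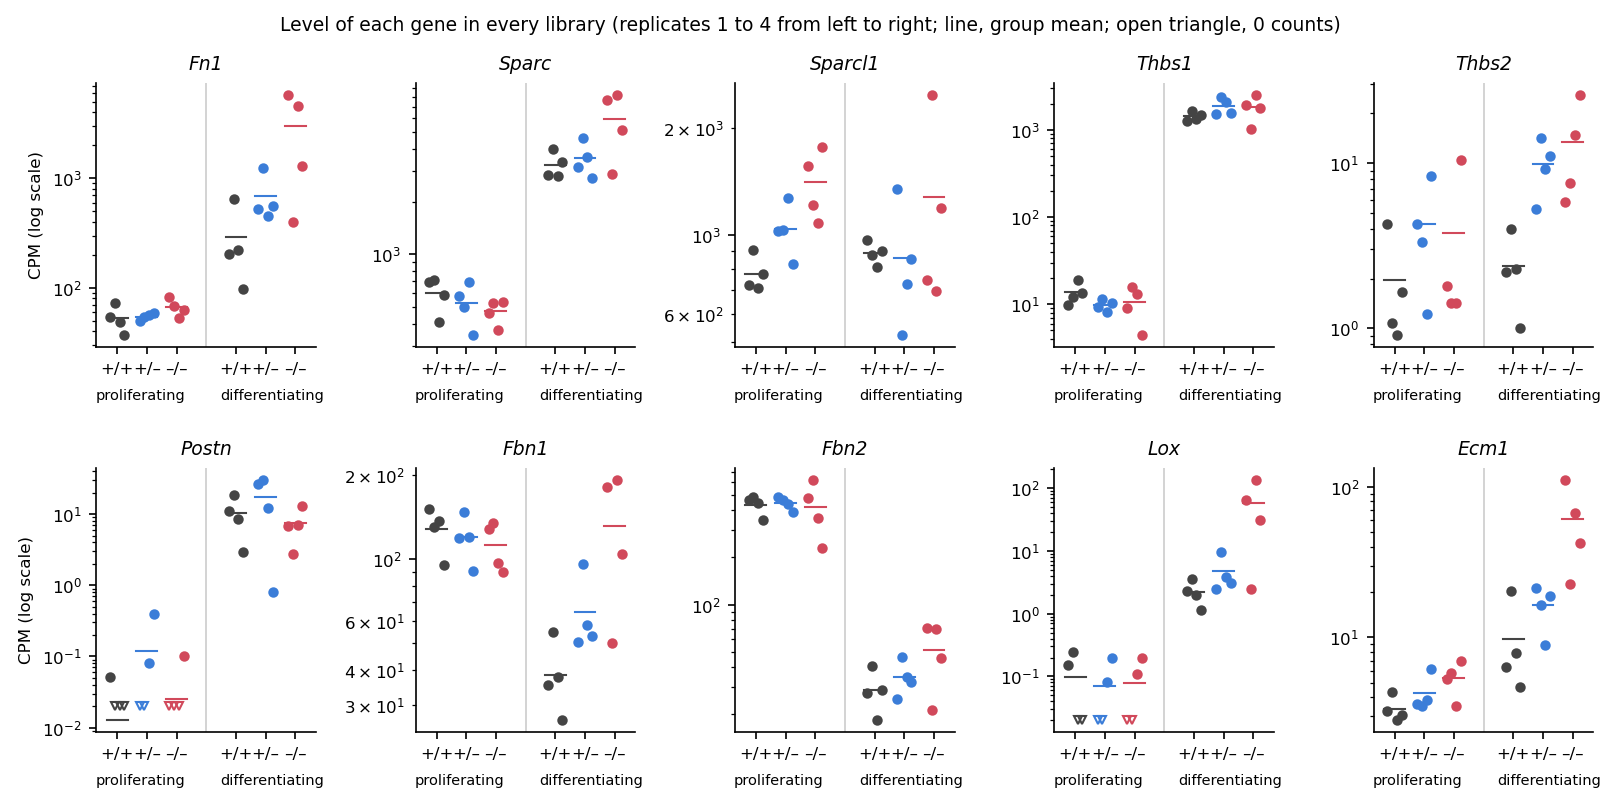
Level of each of the 10 genes in all 24 libraries, as CPM on a log axis, by *Kat6a* genotype and condition. Points are libraries with replicates 1 to 4 from left to right, lines are group means and open triangles mark libraries with 0 counts. *Thbs1* was between 4.39 and 19.0 CPM in proliferating libraries and between 1023 and 2512 CPM in differentiating libraries.

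Per kilobase of gene length (RPKM), *Sparc* and *Sparcl1* had the highest levels of the set in proliferating *Kat6a*+/+ NSPCs, with means of 228 RPKM each. *Fbn2* followed at 41.4 RPKM, *Fbn1* at 13.0 RPKM and *Fn1* at 6.30 RPKM, and *Thbs1*, *Ecm1*, *Thbs2*, *Lox* and *Postn* were at 2.33 RPKM or less. In differentiating *Kat6a*+/+ NSPCs *Sparc* was at 1232 RPKM, *Sparcl1* at 260 RPKM, *Thbs1* at 244 RPKM and *Fn1* at 34.8 RPKM. The remaining genes were at 5.02 RPKM or less. *Sparc* and *Sparcl1* were thus level with each other before differentiation and apart after it.

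*Fn1* (Entrez 14268; GRCm39 chromosome 1, 71624673 to 71692419, minus strand) encodes fibronectin. In proliferating NSPCs, replicates 1 to 4 had 54.4, 72.2, 49.0 and 36.8 CPM in the wild-type, 49.5, 53.8, 56.2 and 59.0 CPM in the heterozygous and 82.1, 68.8, 52.7 and 62.2 CPM in the null libraries. Differentiating replicates were at 205, 647, 223 and 97.5 CPM in the wild-type, 524, 1243, 455 and 564 CPM in the heterozygous and 5765, 398, 4548 and 1309 CPM in the null libraries. All 12 differentiating libraries were above all 12 proliferating libraries. Differentiating groups that were neighbours in the order of the means overlapped, and *Kat6a*-/- replicate 2 was below *Kat6a*+/+ replicate 2. The mean in differentiating *Kat6a*-/- NSPCs was 3005 ± 2561 CPM, while the heterozygous mean was 696 ± 367 CPM and the wild-type mean 293 ± 242 CPM (SD over n = 4).

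Between conditions, *Fn1* rose in *Kat6a*+/- NSPCs by 3.56 (log2 scale, SE 0.60, limma FDR 2.24e-05). In *Kat6a*+/+ NSPCs, whose differentiating libraries were the reference in the choice of the set, the log2 fold-change was 2.13 (SE 0.58, limma FDR 0.00244). In proliferating *Kat6a*-/- vs. *Kat6a*+/+ NSPCs the log2 fold-change of *Fn1* was 0.36 (SE 0.15, limma FDR 0.0924) and did not pass the threshold of 0.05. A fixed litter term (0.48, FDR 0.0190) brought it past the threshold, as did leaving out *Kat6a*+/+ replicate 2 (0.48, FDR 0.0196). The differentiating heterozygous estimate against wild-type was 1.45 (SE 0.50, limma FDR 0.256), and 3 of the 4 *Kat6a*+/- libraries lay within the *Kat6a*+/+ range.

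*Sparc* (Entrez 20692; GRCm39 chromosome 11, 55285317 to 55314067, minus strand) encodes SPARC or osteonectin, a collagen-binding glycoprotein that loosens cell attachment. In proliferating NSPCs it had 693, 715, 412 and 586 CPM in the wild-type, 580, 497, 699 and 344 CPM in the heterozygous and 462, 524, 368 and 534 CPM in the null libraries. Differentiating libraries had 2848, 3994, 2797 and 3378 CPM in the wild-type, 3161, 4657, 3599 and 2731 CPM in the heterozygous and 7678, 2883, 8158 and 5111 CPM in the null libraries. The 12 libraries of each condition did not overlap with those of the other. In total, 3 of 4 differentiating *Kat6a*-/- libraries were above all other libraries, and *Kat6a*-/- replicate 2 lay within the *Kat6a*+/+ range. *Sparc* rose with differentiation by 2.76 in *Kat6a*+/- NSPCs (log2 scale, SE 0.27, limma FDR 1.35e-08) and by 2.47 in *Kat6a*+/+ NSPCs (SE 0.27, limma FDR 6.2e-08). Loss of both alleles in proliferating NSPCs gave a log2 fold-change of −0.22 (SE 0.22, limma FDR 0.465). Differentiating *Kat6a*+/- vs. *Kat6a*+/+ NSPCs gave 0.15 (SE 0.19, limma FDR 0.758).

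*Sparcl1* (Entrez 13602; GRCm39 chromosome 5, 104226288 to 104262065, minus strand) encodes SPARC-like protein or hevin, a relative of SPARC that astrocytes secrete at synapses. It had 722, 910, 707 and 776 CPM in the wild-type, 1029, 1031, 1273 and 828 CPM in the heterozygous and 1567, 1212, 1079 and 1763 CPM in the null libraries in proliferating NSPCs. All 4 *Kat6a*-/- libraries lay above all 4 *Kat6a*+/+ libraries, as for 13.7% of all genes tested, and the *Kat6a*+/- libraries overlapped with both. *Sparcl1* was higher in proliferating *Kat6a*-/- NSPCs by a log2 fold-change of 0.86 (SE 0.16, limma FDR 0.00218). The estimate stayed between 0.73 and 1.01 when single libraries were left out, and without *Kat6a*+/+ replicate 1 it was 0.83 (FDR 0.00904). In *Kat6a*+/- vs. *Kat6a*+/+ NSPCs it was 0.41 (SE 0.16, limma FDR 0.597), and in *Kat6a*-/- vs. *Kat6a*+/- NSPCs it was 0.45 (SE 0.16, limma FDR 0.0665). The summed level of 8 astrocyte markers was 1438 to 2275 CPM in proliferating *Kat6a*-/- libraries, 880 to 1720 CPM in *Kat6a*+/- and 786 to 979 CPM in *Kat6a*+/+ libraries. Of the 7 of these markers tested, 5 were called higher and 0 lower in proliferating *Kat6a*-/- NSPCs, where 16.2% of all genes were higher, and their part in the level of *Sparcl1* was not tested. The markers were not uniform. *Aldh1l1* went the other way, at 2.41 to 6.58 CPM in *Kat6a*-/- and 5.63 to 26.5 CPM in *Kat6a*+/+ libraries. The most abundant was *Slc1a3*, at 1012 to 1783 and 576 to 751 CPM. *Gfap*, at 1.86 to 6.57 and at most 0.556 CPM, passed the filter largely through the *Kat6a*-/- libraries.

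In differentiating NSPCs *Sparcl1* had 970, 879, 813 and 900 CPM in the wild-type, 1347, 522, 726 and 856 CPM in the heterozygous and 749, 2477, 697 and 1189 CPM in the null libraries. The 3 groups overlapped. *Kat6a*-/- replicate 2, the lowest *Kat6a*-/- library for *Fn1* and *Sparc*, was the highest of all 24 libraries for *Sparcl1*. Its astrocyte markers summed to 7065 CPM, against 1895 to 3580 CPM in the other 3 *Kat6a*-/- libraries. Between conditions the log2 fold-change of *Sparcl1* was −0.34 in *Kat6a*+/- (SE 0.29, limma FDR 0.313) and 0.20 in *Kat6a*+/+ NSPCs (SE 0.30, limma FDR 0.559), so a difference from 0 was not detectable in either.

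Thrombospondins are secreted glycoproteins that bind CD36, CD47 and integrins, and thrombospondin-1 can activate latent TGF-beta. *Thbs1* (Entrez 21825; GRCm39 chromosome 2, 117941974 to 117957616, plus strand) had 9.84, 12.2, 19.0 and 13.4 CPM in the wild-type, 9.17, 11.5, 8.24 and 10.3 CPM in the heterozygous and 8.94, 15.6, 13.2 and 4.39 CPM in the null libraries in proliferating NSPCs. Differentiating libraries had 1252, 1638, 1327 and 1484 CPM in the wild-type, 1531, 2372, 2078 and 1564 CPM in the heterozygous and 1912, 1023, 2512 and 1784 CPM in the null libraries. The lowest differentiating library was far above the highest proliferating library. *Thbs1* rose with differentiation by 7.58 in *Kat6a*+/- NSPCs (log2 scale, SE 0.33, limma FDR 2.1e-13) and by 6.88 in *Kat6a*+/+ NSPCs (SE 0.27, limma FDR 1.8e-14). Both were the largest fitted increases among the 8 genes with measurable proliferating levels. In proliferating *Kat6a*-/- NSPCs the log2 fold-change was −0.44 (SE 0.30, limma FDR 0.286), and it was 0.014 without *Kat6a*-/- replicate 4. The differentiating heterozygous estimate was 0.36 (SE 0.17, limma FDR 0.352).

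*Thbs2* (Entrez 21826; GRCm39 chromosome 17, 14885761 to 14914528, minus strand) was far lower than *Thbs1* in differentiating NSPCs. It had 4.25, 1.08, 0.905 and 1.65 CPM in the wild-type, 4.26, 3.31, 1.22 and 8.30 CPM in the heterozygous and 1.81, 1.42, 1.42 and 10.5 CPM in the null libraries in proliferating NSPCs. Differentiating libraries had 2.20, 3.99, 2.27 and 1.01 CPM in the wild-type, 5.24, 14.2, 9.18 and 11.1 CPM in the heterozygous and 5.85, 7.59, 14.8 and 25.8 CPM in the null libraries. All differentiating *Kat6a*+/- and *Kat6a*-/- libraries lay above all differentiating *Kat6a*+/+ libraries. For *Kat6a*+/- vs. *Kat6a*+/+ NSPCs the log2 fold-change was 1.78 (SE 0.39, limma FDR 0.162), with an unadjusted p of 0.000678 in the same limma fit. It passed the threshold without *Kat6a*+/+ replicate 2 (1.85, FDR 0.0479). Between conditions it was 1.43 in *Kat6a*+/- NSPCs (SE 0.65, limma FDR 0.0565), which passed once litter was a fixed effect (1.79, FDR 0.00285). In *Kat6a*+/+ NSPCs it was −0.05 (SE 0.83, limma FDR 0.961). This last estimate was 0.82 without proliferating *Kat6a*+/+ replicate 1, which had the highest level of its group.

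*Postn* (Entrez 50706; GRCm39 chromosome 3, 54268501 to 54298471, plus strand) encodes periostin, which binds integrins and promotes collagen cross-linking. In proliferating NSPCs it was close to absent, with 0 to 4 counts per library and totals over 4 libraries of 2 counts in *Kat6a*+/+, 5 counts in *Kat6a*+/- and 1 count in *Kat6a*-/-. A library with 0 counts allows a level of up to 0.0759 to 0.387 CPM (3 counts, counting error only). Differentiating libraries had 11.0, 18.7, 8.45 and 2.93 CPM in the wild-type, 26.6, 30.3, 12.3 and 0.807 CPM in the heterozygous and 6.88, 2.76, 7.11 and 12.9 CPM in the null libraries. All were above every proliferating library. The differentiating groups overlapped, with the lowest mean in *Kat6a*-/- NSPCs. The log2 fold-change of differentiating *Kat6a*+/- vs. *Kat6a*+/+ NSPCs was 0.55 (SE 0.75, limma FDR 0.778).

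Fibrillin-1 and fibrillin-2 are the structural units of microfibrils, the latter mostly in embryonic tissue. *Fbn1* (Entrez 14118; GRCm39 chromosome 2, 125142514 to 125349913, minus strand) had 151, 131, 137 and 95.0 CPM in the wild-type, 119, 148, 120 and 90.7 CPM in the heterozygous and 128, 134, 96.8 and 89.8 CPM in the null libraries in proliferating NSPCs. Differentiating libraries had 35.6, 54.7, 37.7 and 26.5 CPM in the wild-type, 50.4, 96.2, 58.0 and 53.1 CPM in the heterozygous and 180, 50.1, 192 and 104 CPM in the null libraries. All differentiating *Kat6a*+/+ libraries were below all proliferating ones, while 3 of 4 differentiating *Kat6a*-/- libraries stood above all differentiating libraries of other genotypes. *Fbn1* fell with differentiation by 1.78 in *Kat6a*+/+ NSPCs (log2 scale, SE 0.33, limma FDR 6.25e-05). It fell by 0.92 in *Kat6a*+/- NSPCs (SE 0.32, limma FDR 0.0150), a call lost once litter was a fixed effect (−0.85, FDR 0.133). In *Kat6a*-/- NSPCs the estimate, given as a description, was 0.07 (SE 0.32). The exons of *Fbn1* share 20.1% of their bases with *Gm9913* on the opposite strand.

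*Fbn2* (Entrez 14119; GRCm39 chromosome 18, 58141695 to 58343645, minus strand) had 463, 482, 445 and 344 CPM in the wild-type, 484, 462, 435 and 390 CPM in the heterozygous and 475, 622, 355 and 231 CPM in the null libraries in proliferating NSPCs. Differentiating libraries had 27.1, 40.5, 18.3 and 28.6 CPM in the wild-type, 25.1, 46.4, 34.6 and 32.1 CPM in the heterozygous and 70.7, 21.2, 69.4 and 45.5 CPM in the null libraries. All differentiating libraries were below all proliferating libraries. *Fbn2* fell by 3.71 in *Kat6a*+/- NSPCs (log2 scale, SE 0.33, limma FDR 4.88e-09) and by 3.96 in *Kat6a*+/+ NSPCs (SE 0.33, limma FDR 1.4e-09). In proliferating NSPCs neither *Fbn1* (−0.15, SE 0.13, limma FDR 0.401) nor *Fbn2* (−0.04, SE 0.21, limma FDR 0.899) passed the threshold for *Kat6a*-/- vs. *Kat6a*+/+.

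*Lox* (Entrez 16948; GRCm39 chromosome 18, 52649136 to 52663110, minus strand) encodes lysyl oxidase. Proliferating libraries had 0 to 6 counts each, and totals over 4 libraries were 10 counts in *Kat6a*+/+, 3 counts in *Kat6a*+/- and 3 counts in *Kat6a*-/-. In differentiating NSPCs *Lox* had 2.26, 3.60, 1.98 and 1.13 CPM in the wild-type, 2.47, 9.49, 3.84 and 3.03 CPM in the heterozygous and 64.1, 2.49, 135 and 30.7 CPM in the null libraries. It had the widest range in the set, with a ratio of 54.0 between *Kat6a*-/- replicates 3 and 2. The log2 fold-change of differentiating *Kat6a*+/- vs. *Kat6a*+/+ NSPCs was 0.67 (SE 0.58, limma FDR 0.626). For *Lox* and *Postn* the proliferating counts were too few for a fold-change between conditions to be given.

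*Ecm1* (Entrez 13601; GRCm39 chromosome 3, 95640761 to 95646943, minus strand) encodes extracellular matrix protein 1, a secreted glycoprotein that binds perlecan and other matrix components. It had 3.24, 4.33, 2.82 and 3.04 CPM in the wild-type, 3.62, 3.51, 3.84 and 6.15 CPM in the heterozygous and 5.32, 5.80, 3.50 and 6.98 CPM in the null libraries in proliferating NSPCs. In all, 3 of the 4 *Kat6a*-/- libraries were above all *Kat6a*+/+ libraries. *Ecm1* was called higher in proliferating *Kat6a*-/- NSPCs (log2 fold-change 0.66, SE 0.22, limma FDR 0.0356), on 24 to 128 counts per *Kat6a*+/+ library and 32 to 70 counts per *Kat6a*-/- library. The call was lost in the edgeR quasi-likelihood test (FDR 0.0607), after litter was fitted as fixed (FDR 0.109), with a term for Y-linked reads (FDR 0.0576) and in 6 of 12 fits that left out a library. These 6 left out *Kat6a*+/+ replicates 1, 3 and 4 or *Kat6a*-/- replicates 1, 2 and 4, and gave FDR of 0.0570 to 0.140.

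For *Ecm1*, differentiating libraries had 6.33, 20.3, 7.92 and 4.69 CPM in the wild-type, 21.3, 16.4, 8.90 and 18.8 CPM in the heterozygous and 111, 22.7, 67.3 and 42.6 CPM in the null libraries. All 4 *Kat6a*-/- libraries lay above all libraries of the other 2 genotypes. *Ecm1* rose with differentiation by 1.88 in *Kat6a*+/- NSPCs (log2 scale, SE 0.75, limma FDR 0.0308), a call lost after litter was fitted as fixed (FDR 0.0553) and in 4 of 24 fits that left out a library. In *Kat6a*+/+ NSPCs it was 1.25 (SE 0.71, limma FDR 0.122), although all 4 differentiating libraries were above all 4 proliferating libraries, and the edgeR quasi-likelihood test gave 1.52 (FDR 0.00540). The log2 fold-change of differentiating *Kat6a*+/- vs. *Kat6a*+/+ NSPCs was 1.20 (SE 0.37, limma FDR 0.227), and 1.46 (FDR 0.0460) without *Kat6a*+/- replicate 3.

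**Figure D2:**
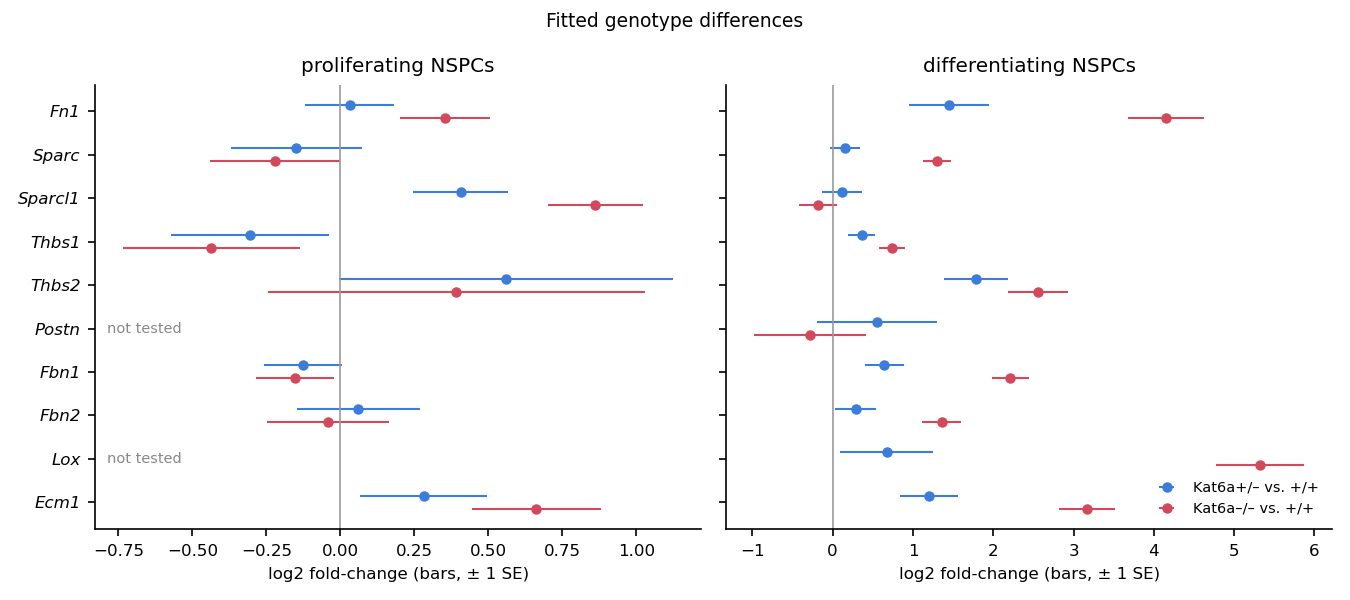
Fitted log2 fold-change of *Kat6a*+/- and *Kat6a*-/- vs. *Kat6a*+/+ for each gene, in proliferating (left) and differentiating (right) NSPCs, with bars of 1 SE on each side. The 2 panels have different horizontal scales, and *Postn* and *Lox* were not tested in proliferating NSPCs. In proliferating NSPCs *Sparcl1* had the highest *Kat6a*-/- estimate (0.86), and the *Kat6a*-/- values on the right are a description.

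Across the set in proliferating NSPCs, 8 of 10 genes passed the filter on low counts, which *Postn* and *Lox* did not. In *Kat6a*-/- vs. *Kat6a*+/+ NSPCs, 2 of these 8 were called, both higher, where 30% of 12276 genes were called in either direction and 16.2% were called higher. Estimates were positive for 4 and negative for 4 genes, with a median log2 fold-change of 0.16 against −0.0045 over all genes tested. The share called was thus near the background. Without *Kat6a*+/+ replicate 1 the count was 1 of 8. In *Kat6a*+/- vs. *Kat6a*+/+ NSPCs 0 of 8 were called, where 0% of all genes were called by limma, 912 genes (7.43%) had an unadjusted p under 0.05 and DESeq2 called 28 genes. The single member with an unadjusted p under 0.05 was *Sparcl1*. In *Kat6a*-/- vs. *Kat6a*+/- NSPCs 0 of 8 were called by limma, where 14.8% of all genes were called. DESeq2 called 1 of 8, and 2 of 8, *Fn1* and *Sparcl1*, had an unadjusted p under 0.05, where 32.5% of all genes did.

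The heterozygous vs. wild-type comparison of differentiating NSPCs shares its *Kat6a*+/+ libraries with the contrast used for the choice. In it 0 of 10 genes were called, where 0% of 13339 genes were called by limma. DESeq2 called 8 of all genes and 0 of the 10. The estimates were positive for all 10 genes, from 0.12 for *Sparcl1* to 1.78 for *Thbs2*, with a median of 0.60 against −0.01 over all genes tested. The sign for *Sparcl1* turned in 6 of 9 other settings and in 2 of 12 fits that left out a library. An unadjusted p under 0.05 was reached by 4 of 10 genes, *Fn1*, *Thbs2*, *Fbn1* and *Ecm1*, where 14.4% of all genes reached it. The *Kat6a*+/- libraries lay wholly above the *Kat6a*+/+ libraries for 1 of 10 genes, *Thbs2*, where 1.42% of all genes did so. Without *Kat6a*+/+ replicate 1 the number called was also 0, for the set and over all genes.

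Given as a description, 8 of 10 genes passed the threshold as higher in differentiating *Kat6a*-/- vs. *Kat6a*+/+ NSPCs, where 26.7% of all genes did. The fitted log2 fold-changes were 5.33 for *Lox* (SE 0.55), 4.15 for *Fn1* (SE 0.47), 3.17 for *Ecm1* (SE 0.34), 2.56 for *Thbs2* (SE 0.37), 2.21 for *Fbn1* (SE 0.23), 1.36 for *Fbn2* (SE 0.24), 1.30 for *Sparc* (SE 0.18) and 0.74 for *Thbs1* (SE 0.16). *Sparcl1* (−0.19, SE 0.24) and *Postn* (−0.28, SE 0.70) did not pass. The 4 *Kat6a*-/- libraries lay wholly above the *Kat6a*+/+ libraries for 2 of 10 genes, *Thbs2* and *Ecm1*, where 12.2% of all genes did so. These fits weight libraries by quality, and *Kat6a*-/- replicate 3 carried 69.0% and replicate 2 carried 4.22% of the weight of their group. The number past the threshold was 0 of 10 without replicate 3, 1 of 10 without replicate 1 and 5 of 10 with equal weights. Without replicate 2 it was 9 of 10, 8 higher and *Sparcl1* lower (−0.35), and without *Kat6a*+/+ replicate 1 it was 8 of 10. The number past the threshold over all genes moved as well. Among fits that left out a library, it was lowest without replicate 3, at 939 genes, and highest without replicate 2, at 9505 genes. The set had its lowest and highest counts in the same fits. Without replicate 3 the estimates were 2.13 for *Lox*, 2.31 for *Fn1*, 1.17 for *Fbn1*, 0.48 for *Sparc*, 0.45 for *Fbn2* and −0.017 for *Thbs1*.

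**Figure D3:**
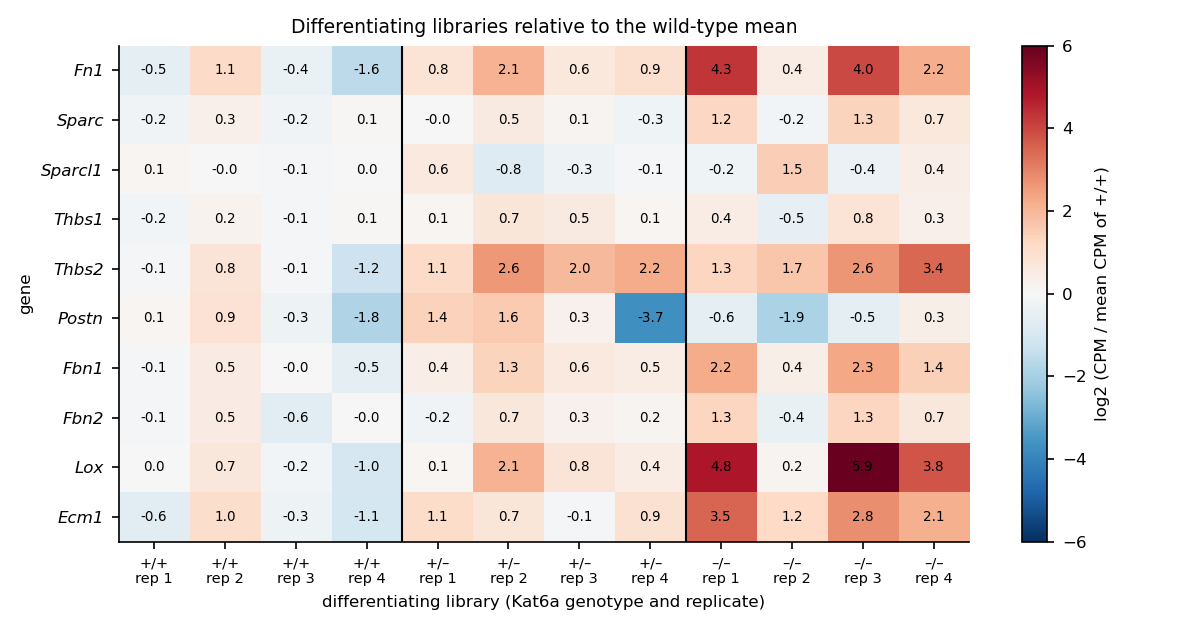
Level of each gene in the 12 differentiating libraries relative to the mean of the 4 *Kat6a*+/+ libraries, as log2 of the ratio of CPM (colour scale and printed values, columns are libraries). *Kat6a*-/- replicates 1 and 3 are the reddest columns and replicate 2 resembles the *Kat6a*+/+ columns for most genes, while *Sparcl1* is at 1.5 in replicate 2.

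The 4 differentiating *Kat6a*-/- libraries were spread widely for several genes. Replicate 2 was the lowest of the 4 for 8 of 10 genes, the third from the top for *Thbs2* and the highest for *Sparcl1*. *Fn1* in replicate 2 was 1.36-fold the *Kat6a*+/+ mean, against 10.3-fold for the mean of all 4 *Kat6a*-/- libraries. For *Lox* these values were 1.11-fold and 25.9-fold, and for *Sparc* 0.886-fold and 1.83-fold. *Ecm1* and *Thbs2* were above the *Kat6a*+/+ mean in replicate 2 as well, at 2.32-fold and 3.21-fold.

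Over the 12 differentiating libraries, the log2 CPM of *Fn1* ran with that of *Fbn1* (Pearson's r 0.987), *Ecm1* (0.937), *Lox* (0.933), *Sparc* (0.885) and *Fbn2* (0.868). It ran less with *Thbs2* (0.679), *Thbs1* (0.676) and *Postn* (0.186), and r was −0.294 with *Sparcl1*. After subtraction of the genotype means, r with *Fn1* was 0.972 for *Fbn1*, 0.893 for *Lox*, 0.857 for *Sparc* and −0.775 for *Sparcl1*. In the 12 proliferating libraries r of *Fn1* was 0.247 with *Fbn1* and 0.00339 with *Sparc*. These coefficients describe libraries that share genotypes, litters and preparation, and they were given no p.

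Markers of other cell types were examined beside these levels. The summed level of 12 markers of meningeal and other fibroblasts was 795, 424, 861 and 736 CPM in differentiating *Kat6a*-/- replicates 1 to 4, 417 to 522 CPM in *Kat6a*+/+ and 352 to 563 CPM in *Kat6a*+/- libraries. *Col1a1*, which is on that list, was at 9.24 to 176 CPM in *Kat6a*-/- and at 2.10 to 16.3 CPM in *Kat6a*+/+ libraries, while *Col3a1* and *Dcn* were under 1 CPM and *Lum* had 0 counts in all 4 *Kat6a*-/- libraries. The most abundant on the list, *Ogn* and *Prrx1*, were at 230 to 354 and 120 to 296 CPM in *Kat6a*-/- libraries. In *Kat6a*+/+ libraries they were at 268 to 366 and 86.0 to 103 CPM. *Foxc1* was at 23.0 to 82.8 CPM in *Kat6a*-/- and 20.8 to 39.8 CPM in *Kat6a*+/+ libraries. *Pdgfra* was lower in *Kat6a*-/- libraries, at 5.44 to 14.8 CPM against 29.8 to 65.6 CPM. The sum of 8 mural cell markers was 795, 143, 821 and 495 CPM in *Kat6a*-/- replicates 1 to 4, 223 to 655 CPM in *Kat6a*+/+ and 156 to 1719 CPM in *Kat6a*+/- libraries. The highest of these, *Kat6a*+/- replicate 2, had *Fn1* at 1243 CPM. This level was below 3 of the 4 *Kat6a*-/- libraries. It was above *Kat6a*-/- replicate 2 and all other differentiating *Kat6a*+/- and *Kat6a*+/+ libraries. Among the mural markers, *Acta2* was at 88.0 to 564 CPM, *Tagln* at 16.4 to 140 CPM and *Cspg4* at 25.3 to 122 CPM in *Kat6a*-/- libraries. *Pdgfrb* was at 10.5 to 29.2 CPM there. *Rgs5*, *Myh11*, *Abcc9* and *Kcnj8* were at most 2.92, 1.17, 0.258 and 0.106 CPM. Of the fibroblast markers tested, 4 of 6 were called higher in differentiating *Kat6a*-/- NSPCs, where 26.7% of all genes were, and 1 was called lower. Of the mural markers tested, 3 of 5 were called higher. *Rgs5* was at 0.646 to 2.92 CPM in *Kat6a*-/- libraries and at most 0.492 and 0.422 CPM in *Kat6a*+/+ and *Kat6a*+/- libraries. It could pass the filter on low counts only through the *Kat6a*-/- libraries, so the mural count is not compared with all genes. Endothelial markers summed to 10.9 to 37.3 CPM in *Kat6a*-/- and 46.9 to 73.1 CPM in *Kat6a*+/+ libraries, and microglial markers to at most 1.02 CPM in all 12 libraries. Oligodendrocyte lineage markers summed to 732 to 1242 CPM in *Kat6a*-/- and 1278 to 1439 CPM in *Kat6a*+/+ libraries, with 3 of 4 called lower, and neural stem and progenitor markers to 8210 to 11802 CPM and 5943 to 7571 CPM, with 3 of 8 called higher and 3 lower. Of 7 neuronal markers tested, 2 were called higher and 4 lower, and of 8 astrocyte markers 1 was called higher and 3 lower. The neuronal marker *Stmn2* was at 0.964 to 3.94 CPM in *Kat6a*-/- and at most 0.220 and 1.07 CPM in *Kat6a*+/+ and *Kat6a*+/- libraries. It passed the filter largely through the *Kat6a*-/- libraries, so nothing is read from the neuronal count called higher. The share of all genes called lower is not given here, so nothing is read from the counts of markers called lower. Among the *Kat6a*-/- libraries, the fibroblast and mural sums were lowest in replicate 2, as were 8 of the 10 genes, and their part in the levels of the set was not tested.

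**Figure D4:**
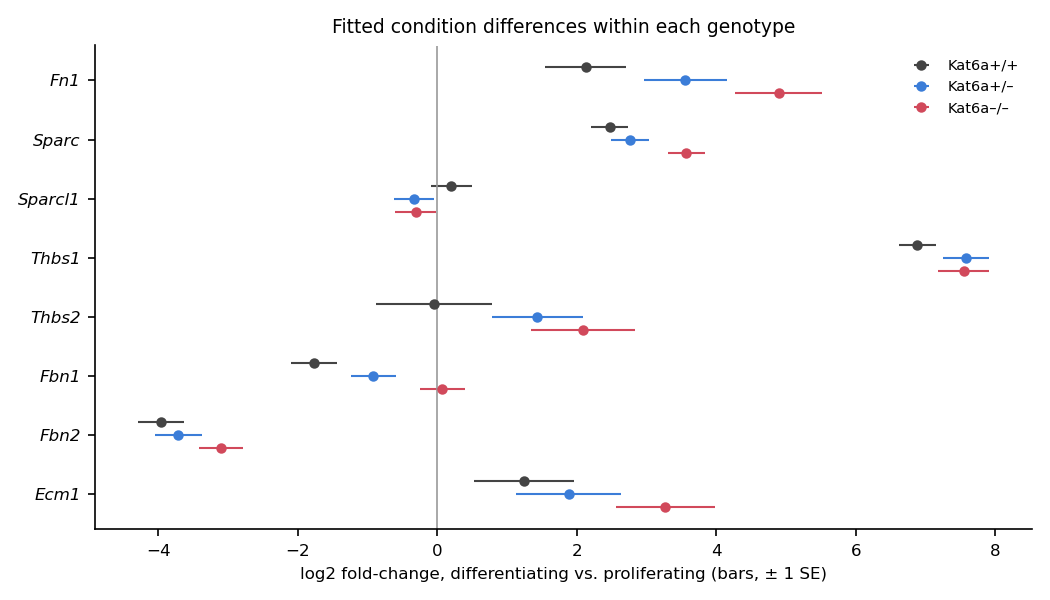
Fitted log2 fold-change of differentiating vs. proliferating NSPCs within each *Kat6a* genotype for the 8 genes with measurable levels in both conditions, with bars of 1 SE on each side. *Thbs1* lies farthest to the right (6.88 to 7.58), *Fbn2* farthest to the left (−3.96 to −3.10) and *Sparcl1* lies at −0.34 in *Kat6a*+/- and 0.20 in *Kat6a*+/+ NSPCs, and the *Kat6a*-/- values are a description.

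Between conditions, the 8 genes with measurable proliferating levels were counted. *Postn* and *Lox* entered this fit only through the differentiating libraries, so the filter on low counts favoured a call as higher, and both are left out. *Postn* was called higher in both genotypes and *Lox* in neither. In *Kat6a*+/- NSPCs, whose libraries did not enter the choice of the set, 6 of 8 genes were called, where 69.7% of 13590 genes were. *Fn1*, *Sparc*, *Thbs1* and *Ecm1* were higher, where 35.4% of all genes were, and *Fbn1* and *Fbn2* were lower, where 34.2% were. In *Kat6a*+/+ NSPCs 5 of 8 genes were called against a background of 72.9%, with *Fn1*, *Sparc* and *Thbs1* higher (36.7% of all genes were) and both fibrillins lower (36.2% were). These 5 genes were also called without either library of *Kat6a*+/+ replicate 1. The share of the set that was called was near the background in both genotypes. The median log2 fold-change of the 8 genes was 1.65 in *Kat6a*+/- and 0.72 in *Kat6a*+/+ NSPCs, against 0.037 and 0.017 over all genes tested.

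Estimates of the additional change in *Kat6a*-/- NSPCs, the interaction of condition and genotype, contain the contrast used for the choice and are a description. The largest for genes with measurable proliferating levels were 2.77 for *Fn1* (SE 0.85), 2.14 for *Thbs2* (SE 1.12), 2.02 for *Ecm1* (SE 1.01), 1.85 for *Fbn1* (SE 0.46) and 1.10 for *Sparc* (SE 0.38). They were 0.86 for *Fbn2* (SE 0.46), 0.67 for *Thbs1* (SE 0.45) and −0.51 for *Sparcl1* (SE 0.42). *Fn1* and *Fbn1* passed the threshold, 2 of 10, where 13.9% of all genes did. *Fn1* no longer passed after litter was fitted as fixed, without a filter on low counts and in 11 of 24 fits that left out a library, among them both that left out a *Kat6a*+/+ replicate 1 library, where 1 of 10 genes passed. Without the proliferating library of that replicate 1265 of all genes passed, against 1895 with all libraries.

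**Figure D5:**
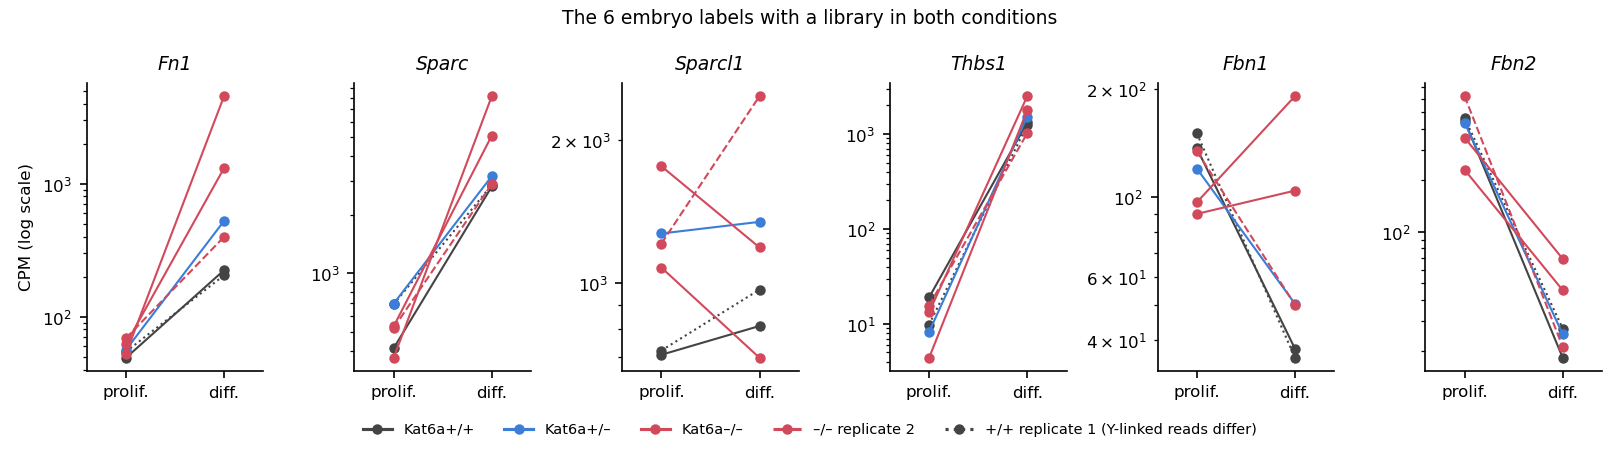
CPM on a log axis of 6 genes in the 6 embryo labels that had a library in both conditions, joined by a line, with colours for the *Kat6a* genotype. The dashed line is *Kat6a*-/- replicate 2, and the dotted line is *Kat6a*+/+ replicate 1, whose Y-linked reads differed between conditions. *Fn1* went up in all 6 pairs and *Fbn2* went down in all 6.

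In libraries with the same embryo label, *Fn1* was 4.56-fold higher after differentiation in a *Kat6a*+/+ embryo and 9.32-fold higher in a *Kat6a*+/- embryo. It was 5.78-fold, 86.4-fold and 21.0-fold higher in *Kat6a*-/- replicates 2, 3 and 4. The second *Kat6a*+/+ pair, in which Y-linked reads disagreed, gave 3.76-fold. *Fbn1* was at 0.276-fold in the first *Kat6a*+/+ embryo and at 0.419-fold in the *Kat6a*+/- embryo, whereas it was at 1.98-fold and 1.16-fold in *Kat6a*-/- replicates 3 and 4 and at 0.372-fold in replicate 2. *Sparcl1* went down in *Kat6a*-/- replicates 3 and 4 (0.646-fold and 0.674-fold) and up in replicate 2 (2.04-fold). No test within a genotype was run on these pairs.

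Receptors and neighbours of the set were examined as lists. Of 13 receptors, which included integrins, *Cd36*, *Cd47* and *Cacna2d1*, 5 were called higher and 2 lower in proliferating *Kat6a*-/- vs. *Kat6a*+/+ NSPCs, where 30% of all genes were called and 16.2% were higher. The most abundant of them were *Itgb1*, the beta-1 integrin chain (log2 fold-change −0.01, SE 0.08, limma FDR 0.934), and *Lrp1*, an endocytic receptor for thrombospondins (0.67, SE 0.20, limma FDR 0.0261). Of 9 tested other matricellular genes 0 were called, including *Tnc*, which encodes tenascin-C (0.14, SE 0.13, limma FDR 0.455), and *Fstl1*, which encodes a secreted relative of SPARC (−0.16, SE 0.24, limma FDR 0.640). Among 13 tested microfibril and elastic fibre genes, 5 were higher and 2 lower. The most abundant, *Fbln2* (−0.89, SE 0.43, limma FDR 0.136) and *Bmp1* (0.01, SE 0.09, limma FDR 0.940), encode fibulin-2 and a procollagen protease and did not pass. In the TGF-beta pathway 2 of 12 were higher and 2 lower, with *Smad4*, the common SMAD, at −0.26 (SE 0.08, limma FDR 0.0291) and the ligand gene *Tgfb3* at 0.27 (SE 0.13, limma FDR 0.129). Of 10 basement membrane genes other than collagens 3 were higher and 1 lower, and *Agrn* (0.02, SE 0.09, limma FDR 0.905) and *Lamc1* (0.17, SE 0.08, limma FDR 0.125), which encode agrin and a laminin chain, did not pass.

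Differentiating *Kat6a*+/- vs. *Kat6a*+/+ NSPCs gave 0 called genes in any of these 5 lists by limma. As a description of differentiating *Kat6a*-/- vs. *Kat6a*+/+ NSPCs, 12 of 13 receptors, 10 of 14 other matricellular genes, 16 of 19 microfibril and elastic fibre genes, 9 of 13 TGF-beta pathway genes and 8 of 10 basement membrane genes were past the threshold as higher, where 26.7% of all genes were. Past it as lower were 1 of the other matricellular genes and 2 of the TGF-beta pathway, *Smad4* (−0.45) among them. With differentiation in *Kat6a*+/- NSPCs, *Tgfb3* rose by 4.18 (log2 scale, SE 0.35, limma FDR 1.69e-09), *Fstl1* by 3.20 (SE 0.41, limma FDR 7.1e-07), *Lamc1* by 1.84 (SE 0.22, limma FDR 3.28e-07) and *Lrp1* by 0.90 (SE 0.22, limma FDR 0.00133). *Fbln2* fell by 6.54 (SE 0.82, limma FDR 4.82e-07), in the same direction as both fibrillin genes. *Itgb1*, *Tnc*, *Bmp1*, *Smad4* and *Agrn* did not pass the threshold in this comparison, with log2 fold-changes of −0.20 to 0.014. In *Kat6a*+/+ NSPCs *Tnc* (−0.80, SE 0.34, limma FDR 0.0428) and *Agrn* (−0.66, SE 0.25, limma FDR 0.0207) were called lower, and the difference between the genotypes was not tested.

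The genes whose log2 CPM over all 24 libraries was most like that of *Fn1*, among 13589 others, were *Jph2* (Pearson's r 0.983), *Col1a1* (0.982) and *Ntn4* (0.980). They encode a junctional membrane protein, a collagen chain and a netrin. For *Sparc* they were *Fstl1* (0.989), *Rnd1* (0.985) and *Ctsl* (0.984), of which *Fstl1* encodes a secreted SPARC relative and *Ctsl* the protease cathepsin L. The 24 libraries include both conditions and share preparation within each, and no p was given to these coefficients.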

How the data were processed

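Messenger RNA was measured in 24 NSPC libraries, made from 200 ng of RNA with a stranded kit. The authors aligned the reads to mm39 in Rsubread, and the deposited values are raw counts per gene made by featureCounts on a RefSeq annotation. Tool versions for these libraries and the strand setting of the counting were not given in the sources used here, so genes with antisense neighbours are uncertain. Library totals were 7826660 to 40838203 counts.

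Of 26411 genes, 21030 were protein-coding in a RefSeq table (26359 matched by Entrez identifier). After filterByExpr and removal of *Xist* and Y-unique genes, 12276 genes were tested in proliferating, 13339 in differentiating and 13590 in all 24 libraries. Proliferating libraries and all 24 libraries were fitted by limma-voom, in which litter entered as a random block (correlation within litters 0.287 and 0.00365). For differentiating libraries, limma-trend was applied to log2 CPM (prior count 2) with arrayWeights quality weights. All used TMM factors, robust moderation and the Benjamini-Hochberg method over all genes tested, with a false discovery rate (FDR) threshold of 0.05, in R 4.3.3 with limma 3.58.1 and edgeR 4.0.16. Unless stated otherwise, an FDR printed is from these fits. CPM were computed without weights, so a fitted log2 fold-change can differ from a ratio of mean CPM. RPKM divide CPM by the deposited gene length. DESeq2 1.42.0, edgeR's quasi-likelihood test, library totals, no filter, litter as a fixed term, replicate number as a block, a term for Y-linked reads, no litter block, equal weights, voom in differentiating libraries, embryo as block and leaving out each library were alternatives.

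The genes and lists were chosen with earlier results of these data known. Genes named outside the set were the 2 tested genes with the highest mean CPM of each list, the 3 genes most like *Fn1* and *Sparc* by Pearson's r, and defining markers of other cell types. Gene positions are from GENCODE vM39 (GRCm39) and promoters from RefSeq (GRCm38.p6). The fits were tested on simulated counts. In proliferating libraries, 90% of 100 genes changed by 1 on the log2 scale and 100% of 100 changed by 2 were recovered, and in differentiating libraries 77% and 100%. Among unchanged genes, 11 were called in proliferating and 6 in differentiating libraries. The changed genes were drawn only from genes above a minimum mean count. No litter correlation and no quality differences between libraries were simulated, so these rates need not hold for the genes of the set. No 2 replicates of a group were alike within sampling noise, with a lowest chi-square per degree of freedom of 4.84.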

Additional observations from a re-analysis of the deposited data

Results flagged for a closer look

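Of 60 groups of 4 libraries, 6 held a library whose gap to its nearest neighbour was large relative to the range of the group by Dixon's criterion. For normally distributed values chance gives about 1 in 20. Low counts are not distributed in this way, so the 6 of 60 are not compared with that rate. *Kat6a*+/- replicate 2 in differentiating NSPCs stood apart for *Fn1*, at 1240 CPM with the next library at 564 CPM, and for *Fbn1*, at 96.2 CPM with the next at 58.0 CPM. Its 8 mural cell markers summed to 1719 CPM, against 156 to 467 CPM in the other *Kat6a*+/- libraries. Among these markers, the highest differentiating *Kat6a*+/- levels were 1110 CPM for *Acta2* and 566 CPM for *Tagln*. *Rgs5* and *Myh11* reached 0.422 and 0.362 CPM there, and *Kcnj8* and *Abcc9* were at 0 CPM. *Kat6a*-/- replicate 4 in proliferating NSPCs stood apart for *Thbs2*, at 10.5 CPM against 1.42 to 1.81 CPM in the others. *Kat6a*+/- replicate 4 in proliferating NSPCs stood apart for *Ecm1*, at 6.15 CPM against 3.51 to 3.84 CPM. Both of these replicate 4 libraries carry litter label L5063, which no other proliferating library has. Each was the highest of its group for *Thbs2* and for *Ecm1*. For *Postn* in proliferating NSPCs, *Kat6a*-/- replicate 4 at 0.0997 CPM and *Kat6a*+/+ replicate 1 at 0.0506 CPM were the sole libraries of their groups with any counts. Such a group always meets the criterion, so both flags were fixed in advance.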

How the results depend on the processing

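Results were recomputed under the alternatives listed above. In proliferating *Kat6a*-/- vs. *Kat6a*+/+ NSPCs, 1 of 8 genes was called by the edgeR quasi-likelihood test and 1 of 8 with a term for Y-linked reads, *Sparcl1* in both, and 1 to 3 when single libraries were left out. In proliferating *Kat6a*-/- vs. *Kat6a*+/- NSPCs 1 of 8 was called by DESeq2 and 1 with litter as a fixed term, and 0 to 1 when single libraries were left out. In differentiating *Kat6a*+/- vs. *Kat6a*+/+ NSPCs 0 to 1 of 10 were called when single libraries were left out. The count past the threshold in differentiating *Kat6a*-/- vs. *Kat6a*+/+ NSPCs was 4 of 10 with litter as a fixed term, 5 with equal weights and 4 with limma-voom, and 0 to 9 when single libraries were left out. Between conditions, leaving out single libraries gave 5 to 9 of 10 in *Kat6a*+/- and 6 to 8 of 10 in *Kat6a*+/+ NSPCs, with *Postn* and *Lox* included. For the interaction the count was 4 with the edgeR quasi-likelihood test, 5 with DESeq2 and 1 without a filter on low counts, and 1 to 6 when single libraries were left out. Numbers called over all genes also moved when single libraries were left out. In proliferating NSPCs they were 2317 to 3996 for *Kat6a*-/- vs. *Kat6a*+/+ and 696 to 2200 for *Kat6a*-/- vs. *Kat6a*+/-. In differentiating NSPCs they were 0 to 301 for *Kat6a*+/- and 939 to 9505 for *Kat6a*-/- vs. *Kat6a*+/+. Between conditions they were 8951 to 9849 in *Kat6a*+/- and 9276 to 10292 in *Kat6a*+/+ NSPCs, and 1265 to 3520 for the interaction. The causes were not tested.

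Signs turned for genes with small or variable differences. In proliferating *Kat6a*-/- vs. *Kat6a*+/+ NSPCs *Fbn2* was at 0.095 with litter as a fixed term, 0.02 without *Kat6a*+/+ replicate 2 and 0.16 without *Kat6a*-/- replicate 4, which also gave 0.014 for *Thbs1* and −0.26 for *Thbs2*. Leaving out single libraries spanned −0.67 to 0.014 for *Thbs1*, −0.26 to 1.00 for *Thbs2* and −0.23 to 0.16 for *Fbn2*. In differentiating *Kat6a*+/- vs. *Kat6a*+/+ NSPCs *Sparcl1* was at −0.050 with the edgeR quasi-likelihood test, −0.044 with DESeq2, −0.036 with litter as a fixed term, −0.55 with a term for Y-linked reads, −0.13 with equal weights, −0.14 with limma-voom, −0.39 without *Kat6a*+/- replicate 1 and −0.11 without *Kat6a*+/- replicate 4, in a range of −0.39 to 0.38. In differentiating *Kat6a*-/- vs. *Kat6a*+/+ NSPCs *Sparcl1* was at 0.52, 0.53, 0.015, 0.33 and 0.36 with the edgeR quasi-likelihood test, DESeq2, litter as a fixed term, equal weights and limma-voom, 0.59 without *Kat6a*-/- replicate 1 and 0.82 without *Kat6a*-/- replicate 3, which also gave −0.017 for *Thbs1*. The ranges were −0.35 to 0.82 for *Sparcl1* and −0.017 to 0.88 for *Thbs1*. *Postn* was there at 0.33 with litter as a fixed term and 0.21 with a term for Y-linked reads. Between conditions in *Kat6a*+/+ NSPCs *Thbs2* was at 0.14 with the edgeR quasi-likelihood test, 0.26 with DESeq2, 0.82 without proliferating replicate 1 and 0.39 without differentiating replicate 4, in a range of −0.31 to 0.82. Of 412 values of single genes under other settings than leaving out a library, 368 kept their sign and their side of the threshold.

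Replicate numbers were not found to pair the samples, since deviations of same-numbered libraries correlated from −0.401 to 0.538 in proliferating, −0.501 to 0.155 in differentiating and −0.155 to 0.219 across conditions, with 4, 1 and 3 of 12 pairs above 0.1. With the replicate block, the called genes were 2 of 8, 0 of 8 and 0 of 8 in the 3 proliferating comparisons, 0 of 10 and 8 of 10 in differentiating *Kat6a*+/- and *Kat6a*-/- vs. *Kat6a*+/+ NSPCs, 7 of 10 and 6 of 10 between conditions in *Kat6a*+/- and *Kat6a*+/+ NSPCs and 2 of 10 for the interaction, as without it.

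Sex and litter are unevenly spread over the genotypes and cannot be fully separated from them in these 24 libraries. Depth limits *Postn* and *Lox* in proliferating NSPCs, which had 0 to 6 counts per library, and *Thbs2* and *Ecm1*, which had 9 to 168 and 24 to 128 counts there.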
